A study of Arabidopsis thaliana with 6 samples.

Results

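The SAUR genes (small auxin up RNA) of Arabidopsis thaliana were followed here through a list of 60 loci, of which 32 lie in 7 tandem clusters and 28 are single loci. A probe set, which is a set of array oligonucleotides designed against one transcript, could be given to a locus only through the array annotation, by gene identifier, symbol or locus tag. That annotation paired 2 of the 60 loci with a probe set, SAUR10 (AT2G18010) and SAUR57 (AT3G53250), each with 1 probe set that was assigned to no other gene. The other 58 loci were not analysed here, 0 loci had a probe set shared with another gene, and 0 of the 32 tandem cluster loci were measured under a name. The comparison of tandem clusters with single loci could therefore not be made, and the values below describe 2 single loci and not the family. The named share, 3.33% of the listed loci, compares with 44.8% of the 27562 protein-coding loci of the RefSeq gene table (assembly TAIR10.1). That table names 80 SAUR loci, of which 3 have a probe set, so the list leaves out part of the family. SAUR loci outside the list were not analysed here.

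SAUR genes encode small plant proteins, and many of them are early auxin-induced transcripts that are also short-lived. The better studied members promote cell expansion: they bind and inhibit phosphatases of the D clade of type 2C, which keeps the plasma membrane proton pumps phosphorylated and active and acidifies the cell wall. Auxin, brassinosteroid, temperature and light signals reach different members, and in seedlings several are expressed in the elongating hypocotyl and in opening cotyledons.

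The study compared 2 genotypes in the Col-0 accession, wild type and the T-DNA insertion mutant cdkf;1-2, with 3 samples of each that the labels call biological replicates. CDKF;1 belongs to a class of cyclin-dependent kinases found in plants, and the series title calls it a Serine-7 kinase of the RNA polymerase II carboxy-terminal domain. The mutant group is a single insertion allele, and the labels do not give its zygosity. Samples were whole seedlings aged 7 days, grown on solid medium with 0.5% sucrose at 22 °C in days of 8 h light with nights of 16 h, and collected 4 h into the light period. The labels give the age once as days after sowing and once as days after germination. They do not say whether the samples were grown or processed together, so p-values measure only the spread between these samples.

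Signals were compared after quantile normalization, which gives every array the same distribution of values, because the deposited medians ranged from 64.4 in mutant replicate 1 to 115 in mutant replicate 3. Differences are mutant minus wild type on the log2(signal + 16) scale, on which the change of a dim transcript is understated. They were tested with limma across 22746 probe sets, and p-values were adjusted over all of them by Benjamini-Hochberg with a threshold of 0.05. No transcript of the mutated gene was analysed here, so there is no check of the genotype labels from it.

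Neither measured gene of the SAUR list passed the test between genotypes. Both had lower means in the mutant, by 1.18-fold for SAUR10 and 1.37-fold for SAUR57 on the log2(signal + 16) scale, and for both the samples of the 2 genotypes overlapped. Limma called 0 of the 2 loci at the adjusted threshold and 0 at an unadjusted 0.05, where 14.4% of all probe sets passed the former and 29.5% the latter. With 2 loci, a count of 0 says nothing about whether the family differs from that background.

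SAUR10, a gene described in Arabidopsis as responsive to auxin and brassinosteroid and as a promoter of stem growth, had normalized signals of 61.4, 60.9 and 47.9 in wild type replicates 1 to 3. In mutant replicates 1 to 3 its signals were 27.7, 69.2 and 46.8. The mutant samples thus lay on both sides of wild type: replicate 2 was above every wild type sample, replicate 1 was far below, and replicate 3 was just under the lowest of them. The group means were 56.7 ± 7.63 in wild type and 47.9 ± 20.7 in the mutant (SD, n = 3 each). The log2 difference was -0.23 (SE 0.24, 95% interval -0.79 to 0.33, limma adjusted p = 0.582). This interval runs from 1.73-fold lower to 1.25-fold higher in the mutant, so neither direction is settled for SAUR10.

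SAUR57 had normalized signals of 69.0, 81.6 and 42.2 in wild type replicates 1 to 3 and of 24.5, 56.6 and 48.7 in mutant replicates 1 to 3. Mutant replicates 2 and 3 lay inside the wild type range, and replicate 1 below it. The group means were 64.3 ± 20.2 in wild type and 43.2 ± 16.7 in the mutant (SD, n = 3 each). The log2 difference was -0.45 (SE 0.27, 95% interval -1.09 to 0.19, limma adjusted p = 0.329). For SAUR57 the interval reaches from 2.12-fold lower to 1.14-fold higher in the mutant.

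**Figure D1:**
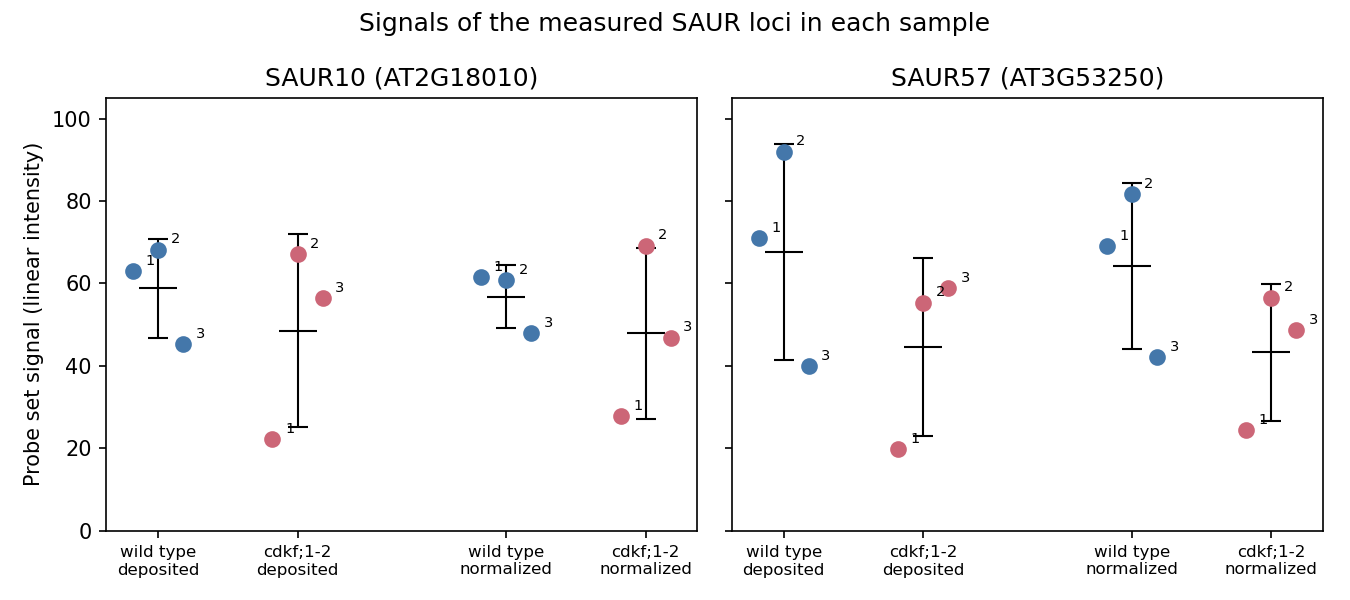
Probe set signal (linear intensity, vertical axis) of SAUR10 and SAUR57 in each sample, as deposited and after quantile normalization. Points are samples with their replicate number, and bars are the mean ± SD of 3 samples. Mutant replicate 1 is the lowest of the 6 samples in each of the 4 sets of values, and the other mutant samples lie in or near the wild type range.

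In both genes the lowest of the 6 samples was mutant replicate 1, before and after normalization. Its deposited signals were 22.1 for SAUR10 and 19.7 for SAUR57, where the other 5 samples ran from 45.3 to 68.2 and from 39.9 to 92.0. Relative to the wild type mean, the log2 level in that sample was -0.73 for SAUR10 and -0.96 for SAUR57. The same array had the lowest deposited median of the 6 and the lowest weight, 0.320, when limma estimated how closely each array followed its group. Without mutant replicate 1 the difference became 0.01 for SAUR10 (SE 0.18, limma adjusted p = 0.972) and -0.20 for SAUR57 (SE 0.23, limma adjusted p = 0.610). The lower means of both genes thus rested in large part on 1 of the 3 mutant samples, and the part of that array's quality in this was not tested.

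After normalization the order of wild type replicates 1 and 2 differed between the 2 genes. Replicate 3 was the lowest wild type sample in both. Leaving that sample out gave the most negative difference for SAUR57, -0.66 (SE 0.27, limma adjusted p = 0.185). For SAUR10 the most negative value, -0.47 (SE 0.20, limma adjusted p = 0.220), came without mutant replicate 2, the sample that lay above wild type. The gap between the 2 genes within a sample, SAUR57 minus SAUR10, was 0.11 ± 0.24 in wild type and -0.10 ± 0.14 in the mutant on the log2 scale (SD, n = 3 each). This gap differed by -0.22 between genotypes (two-sided exact permutation p = 0.3). Since 3 samples against 3 cannot give a p below 0.1, this test could not have passed 0.05 and leaves unsettled whether SAUR10 and SAUR57 responded differently.

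Both SAUR probe sets were dim and variable. Their mean signals stood at percentiles 38.1 (SAUR10) and 38.5 (SAUR57) of all probe sets, and no detection calls were used here, so whether they lay above background is not stated. The SD between samples of a genotype was 0.36 for SAUR10 and 0.42 for SAUR57 on the log2 scale, above that of 85.5% and 91.9% of all probe sets. Probe sets within 5 percentiles of the same brightness had median SDs of 0.22 for both. With this spread, a difference of 0.88 for SAUR10 or 1.00 for SAUR57 (1.84-fold and 2.00-fold) would have been needed to pass the adjusted threshold. Smaller estimates would not have passed with 3 arrays per genotype at this spread. This is a cutoff on the estimated differences and not on the true changes of these 2 transcripts.

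The differences of both genes had a size that many probe sets reached. A change at least as large in either direction was seen in 51.2% of probe sets for SAUR10 and in 25.4% for SAUR57. Their median difference was -0.34, beside -0.01 over all probe sets, where the median of 2 loci is their mean. In RefSeq's gene order neither locus neighbours another gene named SAUR: 195 annotated genes separate SAUR10 from the nearest on chromosome 2, AT2G16580, and 269 separate SAUR57 from the nearest on chromosome 3, AT3G51200.

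**Figure D2:**
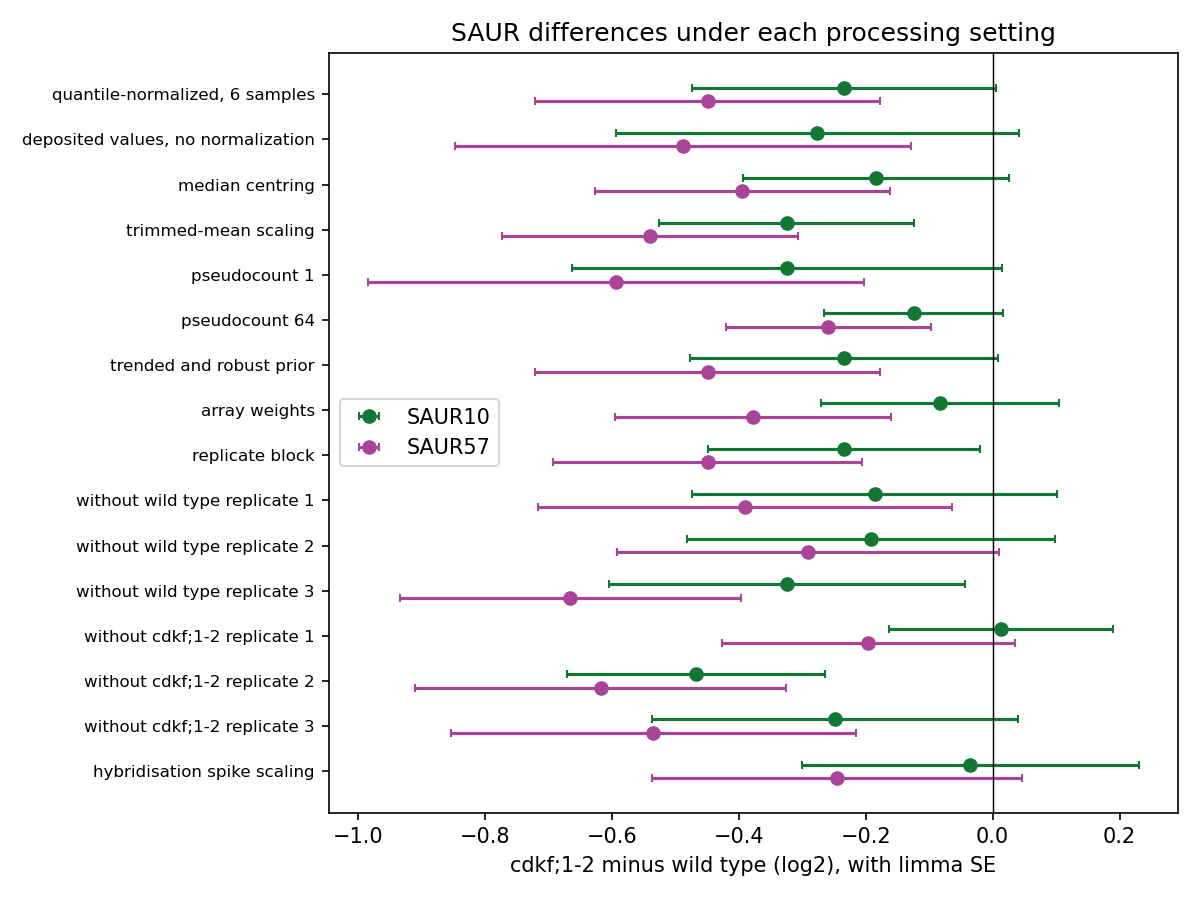
Difference between genotypes (mutant minus wild type, log2, horizontal axis) of SAUR10 and SAUR57 under each processing setting, with limma's standard error as bars. All values of SAUR57 are below 0, from -0.66 to -0.20, and those of SAUR10 run from -0.47 to 0.01, with the highest of both without mutant replicate 1.

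The direction of the means held under the other scalings of the arrays, and no setting brought either gene past the threshold. Scaled on the hybridisation spikes, which are bacterial and phage transcripts added in known amounts, SAUR10 differed by -0.04 (SE 0.27, limma adjusted p = 0.953) and SAUR57 by -0.25 (SE 0.29, limma adjusted p = 0.639). That scaling moved the median of all probe sets to 0.17, so relative to all probe sets the genes kept their place on the lower side.

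Other genes of auxin signalling and of SAUR action were taken from 9 lists of 130 genes in all, of which 20 had a probe set assigned to that gene alone. Of the 20, limma called 2 higher and 0 lower in the mutant, where 6.94% of all probe sets were called higher and 7.42% lower. For 9 of the 20 the genotypes did not overlap, beside 33.9% of all probe sets. The lists of auxin receptors, auxin response factors, auxin transport, proton pumps and growth regulators upstream of SAUR genes had 0 measured members. Among the 20, 5 loci carry no gene name in the RefSeq table and are not named in the text, and 0 of the 5 passed. They include all 4 measured genes of the 9 listed D-clade phosphatases, the group that SAUR proteins inhibit. The log2 differences of these 4 ran from -0.29 to -0.04, with a median of -0.12. For 2 of the 4 the genotypes did not overlap, those with the largest and the smallest difference. Scaled on the hybridisation spikes, the 4 differences ran from 0.01 to 0.33, where the median of all probe sets was 0.17. The direction for this group therefore depends on the scaling.

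Aux/IAA genes encode repressors of the auxin response, and many of the family are themselves auxin-induced. Whether the 7 measured members respond to auxin was not tested. Of these 7, limma called 0, where 14.4% of all probe sets were called. An unadjusted 0.05 was passed by 2 that were higher and 2 that were lower, where 29.5% of all probe sets passed. IAA29 had normalized signals of 127, 160 and 153 in wild type and 73.6, 99.0 and 108 in the mutant, with no overlap (log2 -0.58, SE 0.16, limma adjusted p = 0.0568). IAA20 ranged from 2.98 to 14.0 in wild type and from 14.6 to 47.4 in the mutant (log2 0.93, SE 0.30, limma adjusted p = 0.0826), levels at which the difference depends on the added 16. Under other settings IAA29 passed in 6 of 16 and IAA20 in 3 of 15 (limma adjusted p from 0.0159 to 0.393 and from 0.0267 to 0.306). Of 3 measured YUCCA genes, which encode enzymes of auxin synthesis, 0 passed, with log2 differences of -0.25 for YUC2, 0.36 for YUC4 and 0.30 for YUC6. Under the other settings YUC6 ran from 0.01 without wild type replicate 1 to 0.68 without mutant replicate 1. YUC2 ran from -0.40 without mutant replicate 1 to -0.07 when scaled on the hybridisation spikes.

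Of 6 measured genes of auxin conjugation and oxidation, limma called 2 higher, where 6.94% of all probe sets were called higher. These 2, GH3.3 and GH3.5, encode enzymes that join auxin to amino acids and are auxin-induced, as many SAUR genes are. GH3.9 did not pass (log2 0.60, limma adjusted p = 0.0861). GH3.1 (log2 -0.08, limma adjusted p = 0.924) and GH3.17 (log2 -0.04, limma adjusted p = 0.913) did not pass either. The remaining gene of this list is among the loci without a gene name. GH3.3 rose 1.43-fold (log2 0.52, SE 0.13, limma adjusted p = 0.0425), from 183, 174 and 174 to 305, 237 and 244. GH3.5 rose 1.51-fold (log2 0.59, SE 0.13, limma adjusted p = 0.0271), from 343, 353 and 341 to 619, 490 and 489. After normalization mutant replicate 1 was the highest of the 6 samples in GH3.3 and GH3.5, whereas in the deposited values it was their lowest mutant sample. In SAUR10 and SAUR57 it was the lowest of the 6 in both sets of values. The GH3.3 call was lost under 10 of 17 other settings (limma adjusted p up to 0.449) and that of GH3.5 under 7 of 17 (limma adjusted p up to 0.337).

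**Figure D3:**
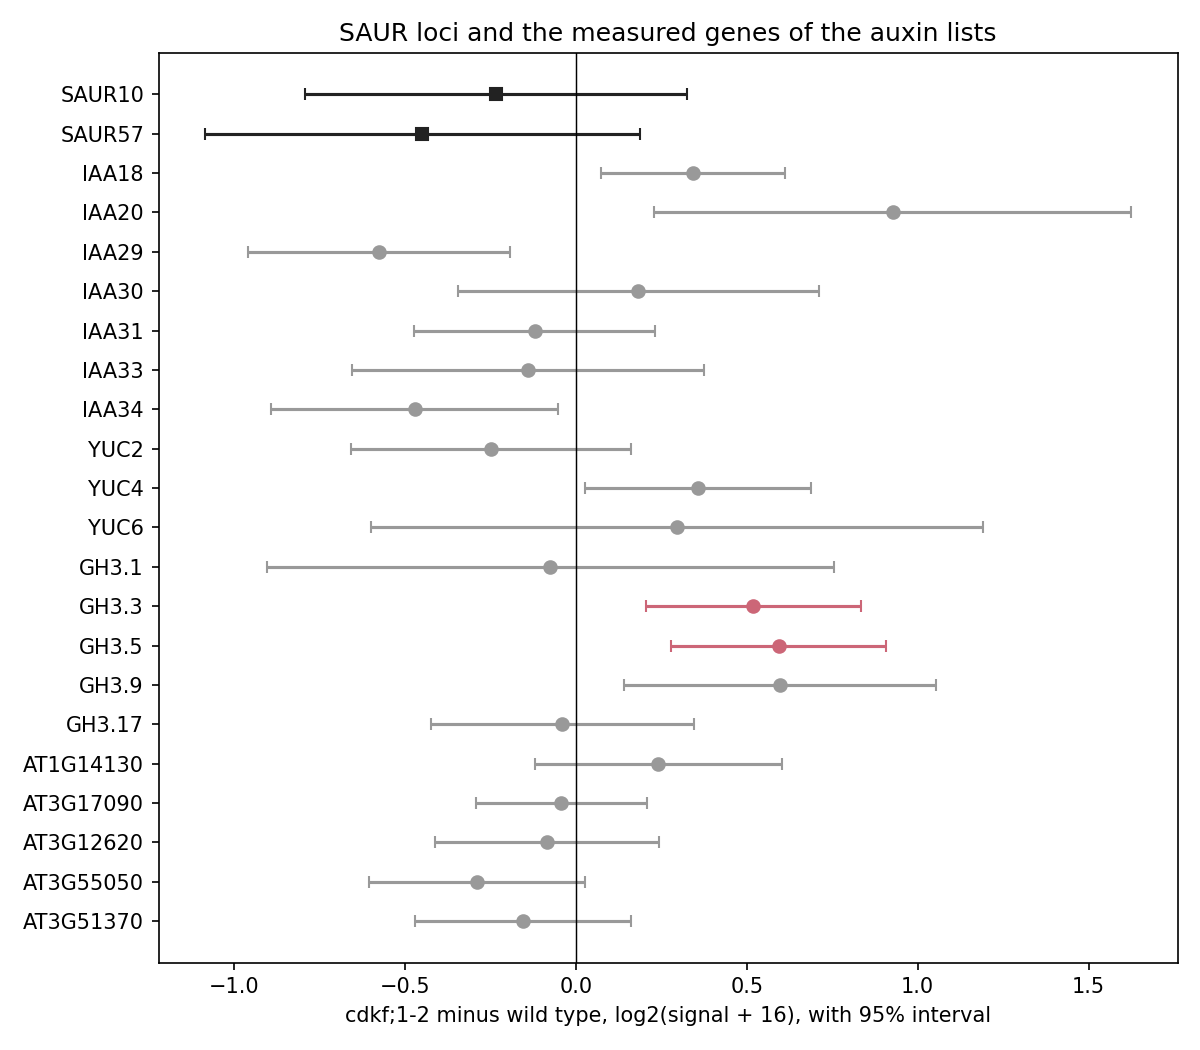
Difference between genotypes (mutant minus wild type on the log2(signal + 16) scale, horizontal axis) with 95% intervals for SAUR10 and SAUR57 (black squares) and the 20 measured genes of the auxin lists (circles, red where limma's adjusted p passed 0.05). The intervals of both SAUR genes include 0, and GH3.3 and GH3.5 are the 2 red circles; loci without a name in the gene table are shown by locus tag.

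Whole seedlings mix many cell types, and in such bulk samples fewer cells of a type and less RNA per cell cannot be told apart. Only 4 of 36 listed cell type markers had a named probe set, so the make-up of the samples was hardly measured. Of the 2 measured root hair markers, both expansin genes, EXPA18 fell 1.65-fold (limma adjusted p = 0.0280, log2 difference -0.73, SE 0.17) and EXPA7 did not pass (limma adjusted p = 0.0620, log2 difference -1.42, SE 0.41). The EXPA18 call was lost under 7 of 16 other settings (limma adjusted p up to 0.227), among them each that left out a wild type sample or mutant replicate 3. EXPA7 passed under 7 of 16, and without mutant replicate 1 its difference was -0.88 (limma adjusted p = 0.00993). Their normalized signals in mutant replicates 1 to 3 were 51.8, 86.3 and 65.4 for EXPA18 and 4.41, 39.8 and 53.7 for EXPA7, again lowest in replicate 1, as in both SAUR genes. The guard cell marker FAMA (log2 -0.25) and the stem cell marker CLV3 (log2 -0.40) did not pass. In these 2 markers mutant replicate 1 was instead the highest mutant sample. Their normalized signals in mutant replicates 1 to 3 were 87.2, 54.0 and 49.3 for FAMA and 13.1, 6.01 and 2.38 for CLV3. These CLV3 signals, and that of EXPA7 in mutant replicate 1, are below the added 16. Whether they lay above background is not stated, so the order of the CLV3 samples carries little weight. The part of tissue composition in the SAUR values was not tested.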

How the data were processed

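Labelled cRNA made from 1 µg of total RNA of each of 6 samples was hybridised to expression arrays. The authors deposited a table of linear intensities with 1 value for each probe set in each sample. Per the submitters' processing notes, GCOS was used; neither its version and settings nor the scaling of the arrays is stated there. Intensities of 22810 probe sets were quantile-normalized, 16 was added and log2 was taken. After 64 control probe sets had been removed, limma 3.58.1 (R 4.3.3) was fitted to 22746 with genotype as the only term, two-sided. The fit was tested on simulated data in which changes were added only to probe sets brighter than the median. That test did not cover changes in probe sets as dim as those of SAUR10 and SAUR57. Probe sets took their genes from the array's annotation (13513 with 1 gene, 503 with several, 8730 not listed) and the RefSeq table of TAIR10.1, and the brightest stood for a gene. SAUR10 and SAUR57 were matched by the locus tag that the annotation gives as their symbol, since its older gene identifiers for them are not in that table, and take their names from its synonyms. All listed SAUR loci with a probe set were named, up to 4 passing genes of each list, largest change first, and others as values for not passing. The members and lists were chosen with earlier results of these data known. Alternatives covered scaling, dim probe sets, pseudocounts, prior variance, array weights, a replicate block and each sample left out. The genome build of the probe sets is unstated, so coordinates are left out. The number of arrays limits the precision.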

Additional observations from a re-analysis of the deposited data

How the results depend on the processing

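Neither SAUR10 nor SAUR57 passed under any of the 15 other settings in which they were tested (limma adjusted p from 0.220 to 0.972 for SAUR10 and from 0.173 to 0.639 for SAUR57), and 0 of the 2 were called in each. SAUR57 was lower in the mutant in 15 of 15 and SAUR10 in 14 of 15, the exception being without mutant replicate 1. Both were removed with the 40% or 60% dimmest probe sets, so these settings give no value for them. Their median difference of -0.34 ran from -0.54 to -0.09 as each sample was left out, with -0.09 without mutant replicate 1. Over all probe sets, limma's 3267 calls became 328 on the deposited values, 2122 with a pseudocount of 1 and 5612 with array weights, and 1482 to 4122 as each sample was left out. On the hybridisation spikes, a scaling added after the data were seen, 1754 of 2181 calls were higher, against 1579 of 3267. With median centring 1466 of 2505 were higher. The causes were not tested. The main fit did not take the replicate numbers as pairs. Same-numbered samples of the 2 genotypes deviated from their group means with correlations of 0.30, 0.01 and 0.15 across probe sets. Wild type replicate 1 correlated best with mutant replicate 1, replicate 2 with mutant replicate 3, and replicate 3 with mutant replicate 2. With the replicate block limma called 3382 probe sets, and the SAUR values were -0.23 (adjusted p = 0.510) and -0.45 (adjusted p = 0.269). The signals of both genes are dim, and their spread between samples was above the median of probe sets of like brightness. That spread limits what could be detected.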
